A study of Mus musculus with 9 samples.

Results

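Of the 34638 genes measured in whole mouse lung, 10 genes associated with neutrophils were examined: *S100a8*, *S100a9*, *Ly6g*, *Prok2*, *Ifitm6*, *Mrgpra2a*, *Mrgpra2b*, *Asprv1*, *Slfn4* and *Fpr1*. They were chosen by their values in these lungs, because each was higher in IL-33+LM8 than in IL-33 lungs. That difference is therefore given as a description, without a test. Whole-lung RNA was sequenced from 9 wild-type C57BL/6 mice, 3 in each of 3 groups. PBS mice received phosphate buffered saline, and IL-33 mice received 0.5 µg of recombinant mouse IL-33 into the trachea on days 0, 1, 2 and 3. IL-33+LM8 mice received the same IL-33 after intraperitoneal LM8, an inhibitor of MyD88 known here by its code name, at 10 mg/kg. The PBS and IL-33 mice were females of 6 to 8 weeks whose lungs were taken on the day after the last dose. Sex, age and sampling time of the IL-33+LM8 mice are not given in the sources used here, and no group received LM8 without IL-33.

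IL-33 is an alarmin released by epithelial cells, and its receptor signals through the adaptor MyD88. Neutrophils are short-lived granulocytes that mature in the bone marrow, circulate in blood and are held in large numbers in lung capillaries even at rest. They are known for granule proteases, an oxidase and very high levels of the calcium-binding proteins S100A8 and S100A9, which pair as calprotectin.

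The total count per mouse lay between 61767006 and 73869252 in PBS, between 53877663 and 66029783 in IL-33 and between 59753648 and 90607218 in IL-33+LM8 lungs. Levels are given as FPKM, fragments scaled to gene length and sequencing depth. Counts were compared by edgeR's quasi-likelihood test, and calls required both a log2 fold change of 1 or more in size and a false discovery rate (Benjamini-Hochberg) below 0.05. In the deviations from their group means over all tested genes, PBS replicate 3, IL-33 replicate 1 and IL-33+LM8 replicate 3 stood apart from the other lungs together, with correlations of 0.647, 0.669 and 0.672 between them. Results are therefore also given without these 3 libraries. The p-values measure the spread between the lungs of a group. All 10 genes passed the filter of a mean FPKM of at least 0.5 over the 9 mice. For 4 of them, *Ly6g*, *Prok2*, *Mrgpra2a* and *Mrgpra2b*, the mean over PBS and IL-33 mice was below it, so they passed through the group in which they were chosen to be high. Of the listed genes described further on, *Mrgprg*, *Olfm4*, *Tnf*, *Stfa2l1*, *Cxcr1*, *Prtn3* and *Ivl* likewise passed only through the IL-33+LM8 lungs, which favours higher values there.

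The first comparison asked what IL-33 did to these genes, which their selection did not measure directly. It shares the IL-33 lungs with the selection, however, and that selection favours genes with low values in IL-33 lungs. In IL-33 against PBS lungs, 6 of the 10 genes were called higher, where 10.8% of the 16831 tested genes were. They were *S100a8*, *S100a9*, *Slfn4*, *Ly6g*, *Mrgpra2b* and *Asprv1*. *Fpr1* was called lower, as were 6.24% of all tested genes, and *Ifitm6*, *Mrgpra2a* and *Prok2* were not called. The median log2 fold change of the 10 genes was 1.89, or 1.79 with *Prok2* at the floor of 3 counts, and it was -0.01 over all tested genes. Of the 6, *Ly6g* and *Mrgpra2b* were among the genes that passed the filter only through the IL-33+LM8 group. A rise with IL-33 before the higher level with LM8 was thus not called for *Ifitm6*, *Mrgpra2a* and *Prok2*, and *Fpr1* fell. Without the 3 libraries that stood apart, 6 genes were again called higher. In bulk lung RNA, a change in the number of cells of a type and a change in RNA per cell cannot be told apart.

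In the contrast that chose them, IL-33+LM8 against IL-33, 1.46% of all tested genes were called higher and 3.93% lower. No call is given there for the 10 genes, because they were chosen by that difference. The same IL-33+LM8 lungs enter the contrast with PBS, in which 5.87% of 16829 genes were called higher and 1.46% lower. It is described without a test for these genes. In each of the 10 genes, all 3 IL-33+LM8 lungs lay above all IL-33 and all PBS lungs, which describes values that the selection used.

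**Figure D1:**
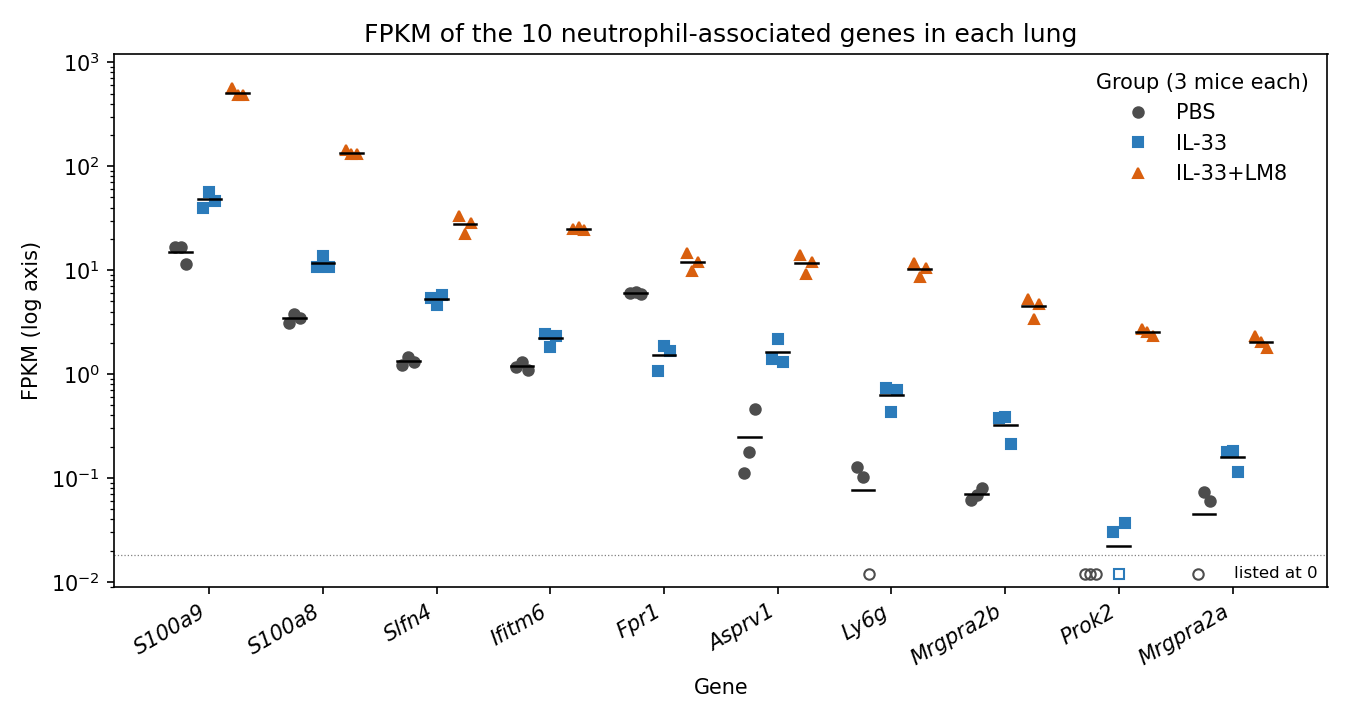
FPKM of the 10 genes in each of the 9 lungs, on a log axis; each point is 1 mouse, black bars are means of 3 mice, and open points under the dotted line are lungs listed at 0. IL-33+LM8 lungs are highest for every gene, and *Fpr1* alone is lower in IL-33 than in PBS lungs.

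The calprotectin genes were the most abundant of the 10 in IL-33+LM8 lungs. *S100a9* stood at 16.7, 16.8 and 11.4 FPKM in the PBS lungs, at 39.9, 57.0 and 46.7 in the IL-33 lungs and at 563, 482 and 481 in the IL-33+LM8 lungs. The 3 groups did not overlap, and the IL-33+LM8 lungs stood far above both others. Its rise with IL-33 was 1.67 on the log2 scale (SE 0.20, adjusted p = 0.00036). Mean FPKM was 10.6-fold higher in IL-33+LM8 than in IL-33 lungs, with 509 ± 46.9 against 47.9 ± 8.61 (SD, n = 3).

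*S100a8*, which encodes the partner subunit, followed the same order. It measured 3.12, 3.77 and 3.43 FPKM in the PBS lungs, 10.8, 13.8 and 10.7 in the IL-33 lungs and 142, 130 and 131 in the IL-33+LM8 lungs. Again no lung of a group reached the range of another. The rise with IL-33 was 1.77 (SE 0.17, adjusted p = 0.000128). IL-33+LM8 lungs were 11.4-fold above IL-33 lungs in mean FPKM and 39.0-fold above PBS lungs.

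The *S100a9* to *S100a8* ratio, taken within each lung from FPKM, was 4.38 ± 1.03 in PBS, 4.07 ± 0.354 in IL-33 and 3.78 ± 0.155 in IL-33+LM8 lungs (SD, n = 3). The lungs of the 3 groups overlapped in this ratio, so both genes differed between groups by similar factors. Among the other S100 genes, 10 of 14 were tested. IL-33 raised *S100a4* and *S100a14* and lowered *S100g*, and with LM8 no gene of this family was called higher and *S100a14* was called lower. The most abundant, *S100a11*, averaged 303, 514 and 414 FPKM in PBS, IL-33 and IL-33+LM8 lungs.

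*Ly6g* encodes the GPI-anchored surface protein by which mouse neutrophils are commonly identified. Its FPKM was 0.128, 0.102 and 0 in the PBS lungs, 0.729, 0.435 and 0.703 in the IL-33 lungs and 11.8, 8.64 and 10.5 in the IL-33+LM8 lungs. The PBS values rest on 9, 7 and 0 counts, and the IL-33 values on 48, 27 and 39. All IL-33 lungs were above all PBS lungs, and the IL-33+LM8 lungs were 16.6-fold above the IL-33 lungs in mean FPKM. The rise with IL-33 was 2.90 (SE 0.81, adjusted p = 0.0187). This call was lost without IL-33 replicate 3 (adjusted p = 0.0548), with all genes above 0 tested (adjusted p = 0.0796) and on log2(FPKM + 1), where the log2 fold change was 0.59. The adjusted p ranged from 0.00392 to 0.0796 over the alternatives. With PBS replicate 3 left out, the log2 fold change was 2.28, and with PBS replicate 1 left out it was 3.52. Of the 31-base stretches of *Ly6g*, 9.55% occur in other genes, most often in *Ly6i*, which had 935, 608 and 855 counts in the IL-33 lungs. In the Ly6 family, 6 of 8 genes were tested, and none was called higher and *Ly6k* was called lower with LM8. *Ly6i*, *Ly6k* and *Ly6d* rose with IL-33, and *Ly6a*, the most abundant, was not called in either comparison.

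Receptors formed the next group. *Fpr1* encodes a receptor for formylated peptides, which bacteria and damaged mitochondria release. It stood at 6.00, 6.11 and 5.84 FPKM in the PBS lungs, 1.06, 1.88 and 1.66 in the IL-33 lungs and 14.5, 9.79 and 12.0 in the IL-33+LM8 lungs. The IL-33 lungs were the low group here, below every PBS lung. *Fpr1* fell by 1.96 with IL-33 (SE 0.23, adjusted p = 0.00034). Mean FPKM in IL-33+LM8 lungs was 2.02-fold that of PBS lungs, the smallest such multiple of the 10 genes. The ratio of *S100a8* to *Fpr1* was 0.576 ± 0.0494 in PBS, 7.98 ± 1.97 in IL-33 and 11.3 ± 1.79 in IL-33+LM8 lungs (SD, n = 3).

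*Fpr2*, its paralog and the other gene of the family that was tested, had a like course. It measured 4.71, 5.50 and 5.33 FPKM in the PBS lungs, 2.39, 1.70 and 1.73 in the IL-33 lungs and 15.4, 12.4 and 15.9 in the IL-33+LM8 lungs. *Fpr2* fell by 1.41 with IL-33 (SE 0.19, adjusted p = 0.000601) and rose by 2.90 with LM8 (SE 0.18, adjusted p = 8.84e-05). Its transcripts hold all 20 of the 31-base stretches that *Fpr1* shares with other genes, 1.55% of those of *Fpr1*. *Fpr3* was near 0 throughout.

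*Mrgpra2a* and *Mrgpra2b* encode Mas-related G protein-coupled receptors, a family known for responses of neutrophils and sensory neurons to peptides. *Mrgpra2b* measured 0.0618, 0.0692 and 0.0803 FPKM in the PBS lungs, 0.381, 0.384 and 0.211 in the IL-33 lungs and 5.27, 3.40 and 4.76 in the IL-33+LM8 lungs. *Mrgpra2a* measured 0, 0.0740 and 0.0599 FPKM in the PBS lungs, 0.178, 0.182 and 0.114 in the IL-33 lungs and 2.33, 2.04 and 1.77 in the IL-33+LM8 lungs. For both, each IL-33 lung exceeded each PBS lung. The call for IL-33 was made for *Mrgpra2b*, with a log2 fold change of 2.11 (SE 0.39, adjusted p = 0.00296), and not for *Mrgpra2a*, with 1.80 (SE 0.77, adjusted p = 0.0834). A fit of all 9 mice did call *Mrgpra2a* (adjusted p = 0.0377; range over alternatives 0.0377 to 0.312). On log2(FPKM + 1), the scale that shrinks low genes, *Mrgpra2b* was at 0.31 and was not called.

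These 2 genes are uncertain as separate readings. They lie side by side on chromosome 7, 11666 bases apart with no other gene of the table between them. Of the 31-base stretches in their transcripts, *Mrgpra2a* shares 92.4% and *Mrgpra2b* 87.0% with other genes, nearly all with each other, and the way shared reads were counted is not given in the sources used here. Summed over both genes, the counts were 6, 12 and 15 in the PBS lungs, 51, 48 and 24 in the IL-33 lungs and 620, 458 and 806 in the IL-33+LM8 lungs. The summed counts kept the order of the groups without overlap. Of the other Mas-related receptor genes, 7 of 17 were in the table and 3 were tested. *Mrgprg* was called higher in both steps, from 0 in all PBS lungs to a mean FPKM of 0.894 with IL-33 and 1.93 with LM8. *Mrgpre* rose by 1.79 with IL-33 (SE 0.22, adjusted p = 0.000433) and was not called with LM8, at -0.76. *Mrgprf*, the most abundant, was not called in either.

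*Prok2* encodes prokineticin 2, a small secreted ligand of the receptors encoded by *Prokr1* and *Prokr2*. It was listed at 0 in all 3 PBS lungs, at 0.0303, 0 and 0.0368 FPKM in the IL-33 lungs and at 2.71, 2.54 and 2.34 in the IL-33+LM8 lungs. The counts were 0, 0 and 0, then 4, 0 and 4, then 325, 315 and 423. PBS and IL-33 lungs overlapped at 0, and the IL-33+LM8 lungs stood alone. With both lower groups near the floor of 3 counts a library, no fold is given for IL-33 against PBS (adjusted p = 0.0905, not called). *Prok2* was called there without IL-33 replicate 2 (adjusted p = 0.0353; range over alternatives 0.0229 to 0.834). Against PBS, depth-scaled counts in IL-33+LM8 lungs were at least 110.5-fold higher. Floors and intervals of this kind cover counting error only. The table also holds *Gm26748* on the opposite strand at this place, with at most 20 counts in any lung, and whether the counting used strand is not given in the sources used here.

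Genes with which these proteins act were also listed. Of 10 such genes, 7 were tested, among them *Tlr4*, *Cd14* and *Ager*, whose products bind calprotectin or take part in its signalling. None was called in IL-33 against PBS or in IL-33+LM8 against IL-33. In IL-33+LM8 against PBS, *Cd14* was called higher, by 1.29 (SE 0.09, adjusted p = 0.000115). *Ager*, the most abundant and a marker of alveolar type 1 cells, averaged 847, 445 and 662 FPKM in PBS, IL-33 and IL-33+LM8 lungs. *Prokr1* and *Prokr2* were below the filter, with group means of at most 0.310 and 0.00718 FPKM.

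*Ifitm6* and *Slfn4* belong to families induced by interferon. *Ifitm6* measured 1.17, 1.31 and 1.11 FPKM in the PBS lungs, 2.46, 1.83 and 2.31 in the IL-33 lungs and 24.8, 26.2 and 24.4 in the IL-33+LM8 lungs. The IL-33 lungs were above the PBS lungs without overlap, by 0.87 on the log2 scale (SE 0.22, adjusted p = 0.0131), which is under the fold needed for a call. Without IL-33 replicate 2 it reached 1.00 and was called (adjusted p = 0.0149; range over alternatives 0.000571 to 0.125). The IL-33+LM8 lungs were 11.4-fold above the IL-33 lungs and lay close together, with an SD of 3.65% of their mean. Of the 6 other *Ifitm* genes, 5 were tested and none was called with IL-33. *Ifitm1* alone of them was called higher with LM8, by 1.48 (SE 0.12, adjusted p = 0.000228). *Ifitm2* (0.82, adjusted p = 0.000113), *Ifitm10* (0.70, adjusted p = 0.034) and *Ifitm3* (0.45, adjusted p = 0.00892) were higher but under the fold for a call. *Ifitm5*, at -0.17, was not called either. *Ifitm3* was the most abundant.

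*Slfn4*, a Schlafen gene known from myeloid cells, measured 1.23, 1.47 and 1.3 FPKM in the PBS lungs, 5.35, 4.61 and 5.83 in the IL-33 lungs and 33.4, 22.2 and 28.2 in the IL-33+LM8 lungs. The groups were again fully separate. Its rise with IL-33 was 1.98 (SE 0.13, adjusted p = 1.82e-05), and IL-33+LM8 lungs were 5.30-fold above IL-33 lungs, the smallest step of the 10 genes. Of its 31-base stretches, 20.1% occur in other genes, most of them in *Slfn3*, which was not called in either comparison. In the rest of the family, 4 of 6 tested genes rose with IL-33 and none was called higher with LM8. *Slfn9* also rose with IL-33, by 2.60 (SE 0.16, adjusted p = 1.4e-05). Unlike *Slfn4*, it fell with LM8, by 1.97 (SE 0.13, adjusted p = 0.000138). *Slfn2* was the most abundant, at 19.3, 69.7 and 47.6 FPKM on average in PBS, IL-33 and IL-33+LM8 lungs.

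An interferon response list of 17 genes gave the wider picture. With IL-33, 8 of them were called higher, with a median log2 fold change of 0.73 over the list. With LM8 added, none was called higher and 1, *Mx1*, was called lower, with a median of -0.37. Over all tested genes the 2 medians were both -0.01. *Bst2*, the most abundant, was not called in either comparison.

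*Asprv1* encodes a retroviral-like aspartic protease best known from the outer epidermis. It stood at 0.111, 0.178 and 0.459 FPKM in the PBS lungs, 1.39, 2.15 and 1.3 in the IL-33 lungs and 13.9, 9.11 and 12.1 in the IL-33+LM8 lungs. PBS replicate 3 was the high one among PBS lungs, and no group overlapped another. *Asprv1* rose by 2.66 with IL-33 (SE 0.52, adjusted p = 0.00388), and by 3.42 with PBS replicate 3 left out. Genes of cornified epithelium could mark skin or squamous tissue in a lung sample. Of 9 such genes, 7 were in the table and only *Ivl*, the most abundant of them, passed the filter, and it was not called in any comparison. Their summed FPKM was 0.977, 1.3 and 1.32 in the PBS lungs, 1.86, 2.09 and 0.957 in the IL-33 lungs and 0.984, 2.47 and 2.45 in the IL-33+LM8 lungs. Lungs of all 3 groups overlapped in that sum.

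Among the IL-33+LM8 lungs, replicate 1 was the highest of the 3 for 9 genes, and *Ifitm6* was the exception. The lowest lung was replicate 2 for some genes and replicate 3 for others. The SD within that group was between 3.65% and 21.5% of the mean. Among IL-33 lungs, replicate 2 was the highest for 6 genes. Summed FPKM of the 10 genes was 28.6, 29.9 and 23.6 in the PBS lungs, 62.3, 82.3 and 69.6 in the IL-33 lungs and 814, 696 and 708 in the IL-33+LM8 lungs.

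Neutrophil genes outside the 10 were examined in 5 lists of 55 genes, of which 50 were in the table and 41 were tested. With IL-33, 30 of the 41 were called higher and none lower, with a median log2 fold change of 1.99. Over all tested genes, 10.8% were called higher and 6.24% lower. With LM8 added, 12 were called higher and 2 lower, with a median of 0.59, against 1.46% and 3.93% of all tested genes. All 5 genes shared by leukocytes, described further on, were also called higher with IL-33. How much of the 30 reflects leukocytes in general was not tested. Without the 3 libraries that stood apart, 29 and 12 were called higher.

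Surface receptors and adhesion molecules numbered 20, all tested. With IL-33, 13 were called higher. With LM8, 6 were called higher, *Cxcr2*, *Trem1*, *Trem3*, *Clec4d*, *Clec4e* and *Mcemp1*, 0 were called lower and 14 were not called. Log2 fold changes with LM8 ran from -0.96 to 3.03 over the list, with a median of 0.62. Among those not called, mean FPKM of *Ltb4r1* was 20.7 in IL-33 and 10.6 in IL-33+LM8 lungs. That of *Fcgr3* was 89.2 and 48.1. *Cxcr2*, the receptor for neutrophil-attracting CXC chemokines, stood at 1.33, 0.794 and 1.39 FPKM in the PBS lungs, 8.86, 9.83 and 6.91 in the IL-33 lungs and 23.0, 19.3 and 20.6 in the IL-33+LM8 lungs. Its groups did not overlap, and it rose by 2.86 with IL-33 (SE 0.24, adjusted p = 6.58e-05) and by 1.3 with LM8 (SE 0.13, adjusted p = 0.000514). *Clec4e*, which encodes the glycolipid receptor Mincle, was not called with IL-33 (0.55, SE 0.24, adjusted p = 0.0929) and rose by 3.03 with LM8 (SE 0.27, adjusted p = 0.000355). *Csf3r*, the receptor for G-CSF, rose by 1.96 with IL-33 (SE 0.12, adjusted p = 1.19e-05). Its log2 fold change with LM8, 0.84 (SE 0.15, adjusted p = 0.00651), was under the fold for a call. *Itgb2*, the most abundant of the list and shared by most leukocytes, averaged 25.2, 118 and 68.8 FPKM in PBS, IL-33 and IL-33+LM8 lungs.

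Granule proteins gave 7 of 11 tested genes higher with IL-33 and 6 higher with LM8. *Ngp*, a secondary granule protein, measured 2.20, 1.92 and 2.36 FPKM in the PBS lungs, 7.24, 8.20 and 5.88 in the IL-33 lungs and 41.9, 49.8 and 46.9 in the IL-33+LM8 lungs. It rose by 1.71 with IL-33 (SE 0.18, adjusted p = 0.000178) and by 2.70 with LM8 (SE 0.14, adjusted p = 5e-05). The collagenase gene *Mmp8* rose by 2.54 (SE 0.32, adjusted p = 0.000446) and by 2.60 (SE 0.13, adjusted p = 4.93e-05) in the same 2 steps. *Mmp9*, *Camp*, *Olfm4* and *Wfdc21* also rose with LM8, whereas *Ltf*, which encodes lactoferrin, was called lower. *Hp*, the most abundant and also made by lung epithelium, was not called in either comparison.

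*Retnlg*, a resistin-like gene of neutrophils, took its larger step with IL-33. It stood at 6.56, 4.53 and 3.93 FPKM in the PBS lungs, 102, 103 and 113 in the IL-33 lungs and 196, 171 and 173 in the IL-33+LM8 lungs. It rose by 4.40 with IL-33 (SE 0.20, adjusted p = 4.15e-06), and the 0.76 with LM8 (SE 0.07, adjusted p = 0.00042) was under the fold for a call. Of the chosen genes other than *Prok2*, whose first step is not known, 8 kept a larger fitted step with LM8 than with IL-33 when PBS replicate 3 was left out. *Asprv1* did not, at 3.42 with IL-33 against 2.85 with LM8. That order is what selection by the second step favours.

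Primary granule genes are transcribed in marrow precursors, and *Mpo*, *Elane* and *Ctsg* were close to 0. *Mpo* had 0 counts in the PBS lungs, 0, 16 and 0 in the IL-33 lungs and 36, 57 and 55 in the IL-33+LM8 lungs. *Elane* had 0 counts in the PBS lungs, 0, 12 and 0 in the IL-33 lungs and 8, 6 and 40 in the IL-33+LM8 lungs. None of the 3 passed the filter. *Prtn3* did, at 0.319, 0.610 and 0.987 FPKM on average, and was not called in either step. In the precursor list of 4 genes, *Fcnb* had at most 20 counts in a lung. *Cebpe*, a transcription factor of granulocyte precursors and the most abundant of the list, averaged 0.0328, 6.76 and 1.13 FPKM. With 8, 0 and 0 counts in the PBS lungs, the size of its rise is uncertain. *Cebpe* rose by 7.67 with IL-33 (SE 0.88, adjusted p = 0.000277), with values from 2.91 to 12.11 over the alternatives, and fell by 2.56 with LM8 (SE 0.17, adjusted p = 0.000123), while the remaining tested gene, *Gfi1*, rose with IL-33 and was not called with LM8.

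All 7 genes of a list of oxidase subunits and *Padi4*, a peptidylarginine deiminase gene, rose with IL-33, and none was called in the second step, where the median was -0.44. *Cyba*, a subunit of the oxidase membrane complex and the most abundant of the list, averaged 38.1, 122 and 72.4 FPKM in PBS, IL-33 and IL-33+LM8 lungs. Of 10 stefin genes, cysteine protease inhibitors of neutrophils, 6 were in the table and only *Stfa2l1* passed the filter. *Stfa2l1* had 0 counts in the PBS lungs, 24, 37 and 0 in the IL-33 lungs and 131, 160 and 150 in the IL-33+LM8 lungs. It was called higher with IL-33 and not with LM8, and neither result was firm. The call with IL-33 was lost with all genes above 0, both limma fits, the 3 libraries left out, any PBS lung left out, or IL-33 replicate 1 or 2 left out. A call with LM8 was gained with DESeq2, with limma on log2(FPKM + 1) and without IL-33 replicate 3. *Stfa2* had no count in any PBS or IL-33 lung and 49, 22 and 84 in the IL-33+LM8 lungs.

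**Figure D2:**
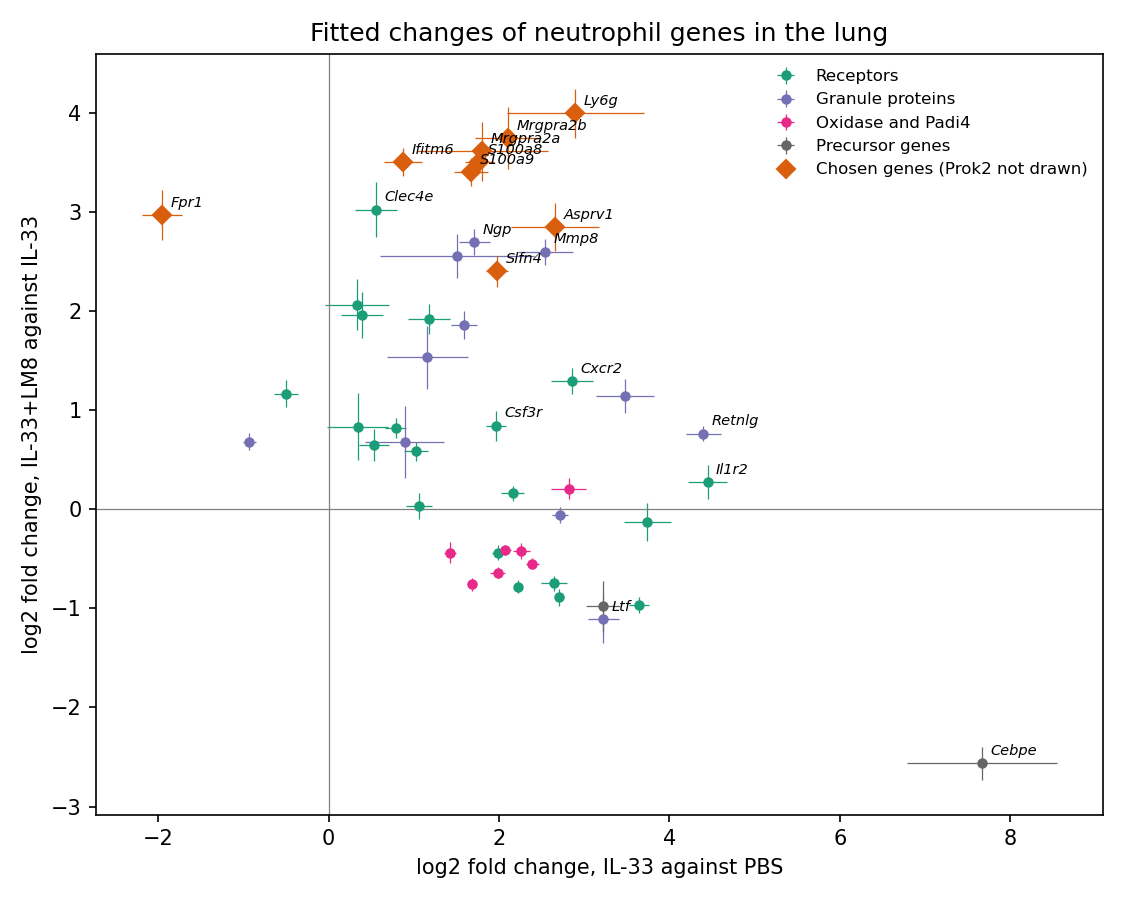
Log2 fold change with IL-33 (horizontal) and with LM8 added to IL-33 (vertical) for neutrophil genes, with SE bars, from fits of 3 against 3 mice that share the IL-33 lungs; *Prok2* and *Stfa2l1*, at 0 in all PBS lungs, are not drawn. The chosen genes lie high on the vertical axis, by which they were chosen, with *Fpr1* left of 0, while the oxidase genes lie below 0 on it and *Padi4* above.

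Genes encoding neutrophil attractants and growth factors were measured as well, 13 in all with 10 tested. IL-33 raised 4 and lowered 1, *Ppbp*. LM8 raised 5, *Cxcl2*, *Cxcl5*, *Ppbp*, *Il1b* and *Tnf*, and lowered *Il6*. *Cxcl15*, the most abundant, was not called in either comparison. *Csf3* and *Il17a* were below the filter, with group means of at most 0.0715 and 0.121 FPKM.

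Markers of other cell types moved with the same groups, and their part in the results above was not tested. Red cell genes fell with IL-33 in 5 of 7 and rose with LM8 in 7 of 7, with medians of -1.52 and 2.01. Their summed FPKM was 9294, 8424 and 7849 in the PBS lungs, 2540, 2549 and 3189 in the IL-33 lungs and about 12340, 11460 and 10890 in the IL-33+LM8 lungs. The IL-33 lungs were lowest and the IL-33+LM8 lungs highest, the order also seen for *Fpr1* and *Fpr2*. *Hbb-bs*, a beta-globin gene and the most abundant of them, fell by 1.70 with IL-33 (SE 0.11, adjusted p = 1.91e-05) and rose by 2.13 with LM8 (SE 0.11, adjusted p = 6.03e-05). No gene of the list was at 0 in all lungs.

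Eosinophil genes took the opposite course to the 10 genes in the second step. Of 10 such genes 8 were tested. With IL-33, 7 of the 8 rose, and with LM8 all 8 were called lower. Their summed FPKM was 105, 115 and 102 in the PBS lungs, 658, 712 and 659 in the IL-33 lungs and 160, 197 and 174 in the IL-33+LM8 lungs, with *Ear2* the most abundant. Among monocyte genes, of which only some are given here, *Ccr2* rose by 2.71 with IL-33 (SE 0.11, adjusted p = 2.68e-06) and was not called with LM8. *Csf1r* was likewise called higher with IL-33 and not called with LM8, at 21.7, 44.5 and 29.5 FPKM on average in PBS, IL-33 and IL-33+LM8 lungs. *F13a1* was not called with IL-33 and rose with LM8, at 2.38, 1.43 and 7.51 FPKM on average. *S100a8*, *S100a9*, *Slfn4* and *Fpr1* are also known from monocytes.

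The 5 genes shared by leukocytes, with *Arhgdib* the most abundant, all rose with IL-33 and none was called with LM8. Their summed FPKM was 116 ± 7.15, 440 ± 9.72 and 303 ± 0.828 (SD, n = 3). Alveolar macrophage genes were 5 higher and 2 lower of 9 with IL-33, and 2 higher and 3 lower with LM8, led by *Chil3* at 203, 4354 and 1951 FPKM on average. Of 5 mast cell and basophil genes only *Cpa3* was tested and it was not called. Of 6 platelet genes 3 were tested, and *Gp9* fell with IL-33 and rose with LM8, while *Pf4*, the most abundant, rose with IL-33. Among 6 lung cell genes, led by *Scgb1a1*, 3 were called lower with IL-33 and 1, *Hopx*, was called higher with LM8.

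The 10 genes whose levels were most like the mean profile of the chosen genes were ranked by Pearson correlation of log2(FPKM + 1) over the 9 mice, among 16819 other genes. They were *Il36g* (r = 0.997), *Clec4e* (0.990), *Trem1* (0.983), *Pilrb1* (0.982), *Pilra* (0.978), *Cracr2a* (0.978), *Clec4d* (0.977), *Camp* (0.975), *Trem3* (0.974) and *Pram1* (0.974). The 9 points fall into the 3 groups, so these values describe the order and spacing of the groups, and no p is given. *Il36g*, an IL-1 family cytokine gene, stood at 0.740, 0.800 and 1.05 FPKM in the PBS lungs, 1.55, 1.71 and 1.44 in the IL-33 lungs and 11.1, 8.08 and 9.41 in the IL-33+LM8 lungs. Its groups did not overlap, with a small gap between PBS and IL-33 and a wide gap above. The list itself depends on the measure: 6 of the 10 were shared with log2(FPKM + 0.1) and 1 with Spearman correlation.

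The chosen genes lie on 6 chromosomes, with coordinates here as the deposited table gives them. The submitters' processing notes name mm10, but only 578 of 32643 genes shared with a GRCm38 annotation (GENCODE M21) have identical coordinates, so the build of the table is not certain. *S100a8* (ENSMUSG00000056054, chr3:90576285-90577342, plus strand) and *S100a9* (ENSMUSG00000056071, chr3:90599939-90603028, minus strand) are neighbours, 22596 bases apart with no other gene of the table between. *Mrgpra2a* (chr7:47076076-47101887, minus strand) and *Mrgpra2b* (chr7:47113554-47178610, minus strand) are the other adjacent pair. *Ifitm6* (chr7:140595612-140597837, minus strand) lies far from them on the same chromosome. *Prok2* (chr6:99688260-99703353, minus strand) and *Asprv1* (chr6:86605146-86606692, plus strand) share chromosome 6 with 196 genes between. *Ly6g* is at chr15:75027089-75030975 on the plus strand. *Slfn4* is at chr11:83066012-83081042 on the plus strand. *Fpr1* is at chr17:18096733-18104202 on the minus strand.

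Promoters of the chosen genes were examined for short motifs. RefSeq promoters (GRCm38.p6) were found for all 10 genes, and the 250 bases before each start were searched on both strands. *Ly6g* has 2 such promoters and counts as matched if either holds the motif, whereas the shares given beside are of single promoters. The letters TATAAA, the core of a TATA box, occurred in 6 of the 10, against 12.4% of 32851 promoters. These were *S100a8*, *Ly6g*, *Prok2*, *Ifitm6*, *Slfn4* and *Fpr1*. The match began 30, 46 and 19 bases before the start in *S100a8*, *Ifitm6* and *Slfn4*. In *Prok2* it lay on the opposite strand, at 46 bases. It lay farther off in *Ly6g*, at 99 or 167 bases by promoter, and in *Fpr1*, at 227. A C/EBP motif, TTGCNNAA, occurred in *S100a9* and in 1 of the 2 *Ly6g* promoters, against 9.56% of all promoters. The PU.1 core GAGGAA occurred in *S100a8* and *Ly6g*, against 23.2% of all promoters. The interferon response core GAAANNGAA occurred in none, against 7.13% of all promoters. A match is only an occurrence of these letters.

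The *S100a8*, *S100a9* and *Ifitm6* promoters are shown because these genes had the 3 highest multiples of IL-33+LM8 over IL-33 lungs among genes above 1 FPKM in every lung, and that of *Mrgpra2a* because all 250 bases are identical in *Mrgpra2b*. Capitals mark motif matches on either strand, and in *S100a8* a PU.1 core directly abuts TATAAA. In GRCm38.p6 the promoters shown lie at chr3:90668821-90669070 (plus), chr3:90695722-90695971 (minus), chr7:141016893-141017142 (minus) and chr7:47452165-47452414 (minus). Aligned over their whole length, the *S100a8* and *S100a9* promoters were identical at 45.5% of positions.
S100a8: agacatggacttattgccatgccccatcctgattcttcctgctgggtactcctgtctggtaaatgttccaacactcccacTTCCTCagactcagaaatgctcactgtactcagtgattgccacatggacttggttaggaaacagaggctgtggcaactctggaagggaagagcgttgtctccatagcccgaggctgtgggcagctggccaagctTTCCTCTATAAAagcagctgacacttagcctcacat
S100a9: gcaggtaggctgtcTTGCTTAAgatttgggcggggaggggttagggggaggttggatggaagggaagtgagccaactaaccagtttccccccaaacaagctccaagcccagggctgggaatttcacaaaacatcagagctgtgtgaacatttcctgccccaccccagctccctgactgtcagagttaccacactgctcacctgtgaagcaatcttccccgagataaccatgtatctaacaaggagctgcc
Ifitm6: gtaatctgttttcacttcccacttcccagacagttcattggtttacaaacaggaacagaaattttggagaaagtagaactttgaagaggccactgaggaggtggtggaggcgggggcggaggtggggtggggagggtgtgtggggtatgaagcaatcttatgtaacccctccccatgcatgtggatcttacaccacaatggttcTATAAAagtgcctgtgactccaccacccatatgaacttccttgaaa
Mrgpra2a: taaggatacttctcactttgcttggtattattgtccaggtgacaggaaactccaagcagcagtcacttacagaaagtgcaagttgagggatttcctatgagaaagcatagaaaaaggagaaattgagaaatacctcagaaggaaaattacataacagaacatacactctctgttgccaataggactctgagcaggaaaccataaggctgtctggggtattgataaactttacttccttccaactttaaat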

How the data were processed

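Whole-lung RNA-seq of 9 mice was analysed, in 3 groups taken from the sample labels. The authors deposited, per gene and mouse, a raw read count and an FPKM value, which corrects that count for length and depth. The submitters' processing notes name Bowtie 0.12.2, HISAT2 2.0, StringTie 1.3.0 and mm10; how each was used is not given in the sources used here. The 10 genes and all lists were chosen with earlier results of these data known.

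Counts were tested with edgeR 4.0.16 (R 4.3.3; quasi-likelihood, TMM), fitting 6 mice per comparison. Genes entered if FPKM averaged 0.5 or more across the 9 mice and any of the 6 had a count. SE is the absolute fitted value over the root of its F statistic. Benjamini-Hochberg adjustment ran over all genes tested; calls used 0.05 and a log2 fold change of 1 or more in size. Multiples are ratios of mean FPKM. An exact two-sided permutation test of 3 against 3 mice cannot go below 0.1 and was not used for calls. The fits and the ranking by likeness were tested on simulated data. Named genes are the 10, the called, most abundant and defining genes of the lists, and the 10 genes most correlated with the mean z-score; other named genes (*Prokr1*, *Prokr2*, *Fpr3*, *Tlr4*, *Cd14*, *Slfn3*, *Stfa2*, *Mpo*, *Elane*, *Ctsg*, *Prtn3*, *Cxcr1*, *Fcnb*, *Csf3*, *Il17a*, *Gm26748*) were chosen after their values were seen.

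Alternatives covered the filter, size factors, DESeq2 1.42.0, limma 3.58.1 on log2(FPKM + 1) and log2(FPKM + 0.1), the fold threshold, a fit of 9 mice, a replicate block, each mouse left out and, added after seeing the data, the 3 libraries that stood apart left out. Replicate numbers in the labels were checked for pairing: same-number deviations correlated at 0.307, 0.322 and 0.672 between PBS and IL-33+LM8 lungs, at -0.419 to 0.280 between PBS and IL-33 lungs, and at -0.397 to 0.222 between IL-33 and IL-33+LM8 lungs. Pairs with different numbers reached 0.669, so these correlations cannot tell whether the numbers pair PBS with IL-33+LM8 lungs. Between libraries of a group, variance was 21.9 or more times that of sampling alone, so none was a copy. List symbols not in the table were not analysed here.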

Additional observations from a re-analysis of the deposited data

How the results depend on the processing

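With IL-33 against PBS, the direction held for all 10 chosen genes in each alternative run. Of 145 member results in that comparison, those with no minimum fold not among them, 137 stayed on their side of the call, 4 lost and 4 gained it. *Ly6g* lost it under 3 settings and *Mrgpra2b* under limma on log2(FPKM + 1); *Prok2* gained it under 2, *Ifitm6* and *Mrgpra2a* under 1 each. With no minimum fold *Ifitm6* also gained it, for 7 genes called higher. The cause was not tested. Called higher were 6 of the 10 genes, 3 when FPKM had to average 5 or more, where only 5 were tested, and 5 to 8 with 1 mouse left out. The 12 other neutrophil genes higher with LM8 became 5 at that filter, again with fewer genes tested, 17 with all genes above 0, which added *Cstdc4*, *Cstdc5*, *Ctsg*, *Stfa1* and *Stfa2*, 18 with no minimum fold, and 12 to 13 with 1 mouse left out. Genes called for IL-33 against PBS, IL-33+LM8 against IL-33 and IL-33+LM8 against PBS numbered 2865, 907 and 1233. They were 1176, 304 and 469 at that filter. They were 1741, 439 and 588 with limma on log2(FPKM + 1), which shrinks low genes, and 9193, 4459 and 4997 with no minimum fold. For IL-33 against PBS the split of higher to lower was 1815 to 1050, against 1281 to 460 with limma and 4616 to 4577 with no minimum fold. In the other comparisons, no minimum fold gave 2120 to 2339 against 245 to 662, and 2741 to 2256 against 988 to 245. With 1 mouse left out the counts were 2729 to 2918, 780 to 963 and 1073 to 1297. With the replicate block they were 2841, 836 and 1364, with 6 of the 10 genes, 30 other neutrophil genes with IL-33 and 12 with LM8; the block changed the call of none of the 10 genes. Depth limits *Prok2*, *Mrgpra2a*, *Mrgpra2b* and *Ly6g*, which rest on under 10 counts in each PBS lung.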
